A study of Bos taurus with 9 samples.

Results

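Bovine ear fibroblasts that had been kept for 6 days in a reprogramming medium were compared with the same type of cell on day 0. The 3 CiADCs-6d samples and the 3 samples of untreated BEFs were chosen by their labels from the 9 samples of the study, the other 3 being cells on day 3. BEFs are fibroblasts grown out of ear skin, of wild-type genotype, kept in DMEM with fetal bovine serum. CiADCs-6d are chemically induced adipocyte-like cells that came from such fibroblasts. They had received 10 µM RepSox, 500 µg/mL valproic acid (VPA) and 1 µM TTNPB in N2B27, a defined medium, and were taken before the study's next step, a maintenance medium with insulin and rosiglitazone. The labels give all 6 samples the treatment "reprogramming", and the titles mark those of day 0 as controls. No culture was kept for 6 days without the compounds, so the compounds, the change of medium and the time in culture cannot be told apart. The labels number the samples of a group 1 to 3 and do not tell if each had its own animal or induction, so the p-values measure the spread between these samples only. The deposited table gives each gene an expected count, an estimate of its reads, and an FPKM, which also corrects for the length of the gene. Of 21512 genes in the table, 14020 had enough counts in the 9 samples to be tested. The test was edgeR's quasi-likelihood test with p-values adjusted by Benjamini-Hochberg, and below a gene that rose or fell has an adjusted p under 0.05, while one called higher or lower also changed by at least 1 on the log2 scale. Levels in single samples are CPM, which are counts scaled to a common library size.

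RepSox inhibits ALK5, the receptor kinase of TGF-beta, whose signalling drives fibroblasts to make collagens and contractile actin fibres. VPA inhibits histone deacetylases and thereby opens chromatin, and TTNPB is a synthetic agonist of the retinoic acid receptors, nuclear receptors that switch on the genes of retinoid metabolism. White adipocytes arise when C/EBP-beta and C/EBP-delta induce PPAR-gamma and C/EBP-alpha, which turn on the genes of lipid uptake, triglyceride storage and adipokines, and differentiating cells leave the cell cycle.

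The counts summed to between 21819170 and 24071580 per sample in BEFs and between 18641502 and 21341142 in CiADCs-6d. At least 1 count was seen for 15102 to 15231 genes in BEFs and for 16043 to 16275 genes in CiADCs-6d. Pearson's r between samples, across genes on log2(FPKM + 1), was 0.995 to 0.9975 within BEFs, 0.9787 to 0.9931 within CiADCs-6d and 0.7956 to 0.8095 between the groups. CiADCs-6d replicate 1 stood apart from the other 2 of its group. The squared difference of a pair relative to counting noise was 48.1 and 33.9 per degree of freedom for the pairs with replicate 1, 12.9 for replicates 2 and 3, and 2.43 to 8.93 for the pairs of BEFs. Where a named gene crossed the threshold or its printed fold moved by over 1.5 times without 1 sample, the value without it is given too.

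The CiADCs-6d samples are labelled as induced adipocytes, and their adipocyte markers were mixed. Of 24 products of mature adipocytes, 18 had enough counts to be tested, of which 9 rose and 4 fell at an adjusted p under 0.05, where 35.6% of all tested genes rose and 31.9% fell. The median log2 fold change of the 18 genes was 0.54, against 0.03 over all tested genes. LEP, RETN, AQP7, PCK1, THRSP and ADRB3, which encode leptin, resistin, a glycerol channel, a gluconeogenic enzyme, a lipogenic factor and an adrenergic receptor, had too few counts, with at most 0.645 CPM in any of the 6 samples. ADIPOQ, the gene of adiponectin, had 0.606, 0.876 and 1.96 CPM in BEFs and 4.33, 3.57 and 4.01 CPM in CiADCs-6d, a log2 fold change of 1.79 (SE 0.34, adjusted p = 0.000485). Its groups did not overlap, yet its level in CiADCs-6d was 1.55 ± 0.141 FPKM (SD, n = 3). FABP4, the fatty acid binding protein of adipocytes, went the other way, with 10.9, 10.3 and 11.6 CPM in BEFs and 1.38, 0.503 and 0.704 CPM in CiADCs-6d (log2 fold change -3.64, SE 0.46, adjusted p = 1.8e-05). CIDEC, a coat protein of large lipid droplets, was at 0.606, 0.626 and 2 CPM in BEFs and at 0.0922, 0 and 0.0541 CPM in CiADCs-6d, 22.2-fold (95% interval 7.31 to 110) lower by summed counts. It was 12.7-fold lower without BEFs replicate 3, 14.4-fold without CiADCs-6d replicate 2 and 43.3-fold without CiADCs-6d replicate 1. PLIN1, which coats the lipid droplet, did not pass the test, with 4.75, 4.25 and 5.11 CPM in BEFs and 3.37, 3.89 and 3.41 CPM in CiADCs-6d (log2 fold change -0.40, adjusted p = 0.113). In the wider list of lipid droplet and lipolysis genes, 10 of 18 tested rose (55.56%) and 1 fell (5.556%), with a median log2 fold change of 0.64. ADIPOQ stood at a log2 fold change of 2.40 without BEFs replicate 3.

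The regulators of adipogenesis rose and fell in shares near those of the products of mature adipocytes, but their falls were smaller. Of 14 tested, 8 rose (57.14%) and 3 fell (21.43%), with a median log2 fold change of 0.46. Of the products 50% rose and 22.22% fell, where 35.6% of all tested genes rose and 31.9% fell. Of the regulators 6 were called higher and 0 lower, and of the products 8 and 4. CEBPD, an early C/EBP factor, had 29.4, 28.7 and 31.8 CPM in BEFs and 347, 255 and 306 CPM in CiADCs-6d (log2 fold change 3.34, SE 0.13, adjusted p = 6.59e-10). CEBPB, the other early factor, had 17.1, 24.2 and 20.2 CPM in BEFs and 101, 84 and 113 CPM in CiADCs-6d (log2 fold change 2.27, SE 0.14, adjusted p = 4.77e-08). CEBPA rose from 0.652, 0.292 and 0.622 CPM to 2.17, 2.52 and 2.54 CPM. PPARG, the receptor that governs fat cell identity, had 4.15, 3.42 and 4.49 CPM in BEFs and 5.16, 5.81 and 7.79 CPM in CiADCs-6d, with a log2 fold change of 0.64 (SE 0.23, adjusted p = 0.0264). The samples of PPARG did not overlap, but the margin was small. ZNF423, a factor of committed preadipocytes, rose by 1.38 (SE 0.19) on the log2 scale, KLF15 by 2.21 (SE 0.45) and PPARGC1A by 2.60 (SE 0.48). EBF1, RXRA and NR1H3 fell by less than 1 on that scale. LPL, the lipase that frees fatty acids from lipoproteins, rose from 3.19 ± 0.231 CPM to 7.54 ± 1.19 CPM, and CFD, adipsin, from 4.42 ± 0.365 CPM to 12.4 ± 3.69 CPM (SD, n = 3). PCK2 and GPD1, enzymes that supply glycerol phosphate, rose by 1.98 (SE 0.24) and 0.63 (SE 0.19) on the log2 scale. The plot of genes by sample shows the levels of many of these genes. PPARGC1A stood at a log2 fold change of 3.42 without BEFs replicate 1. PPARG missed the threshold without BEFs replicate 1 or 2, or CiADCs-6d replicate 3 (adjusted p from 0.058 to 0.13). NR1H3 missed the threshold without BEFs replicate 2 (adjusted p = 0.0927). GPD1 missed the threshold without BEFs replicate 2 (adjusted p = 0.0621).

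**Figure D1:**
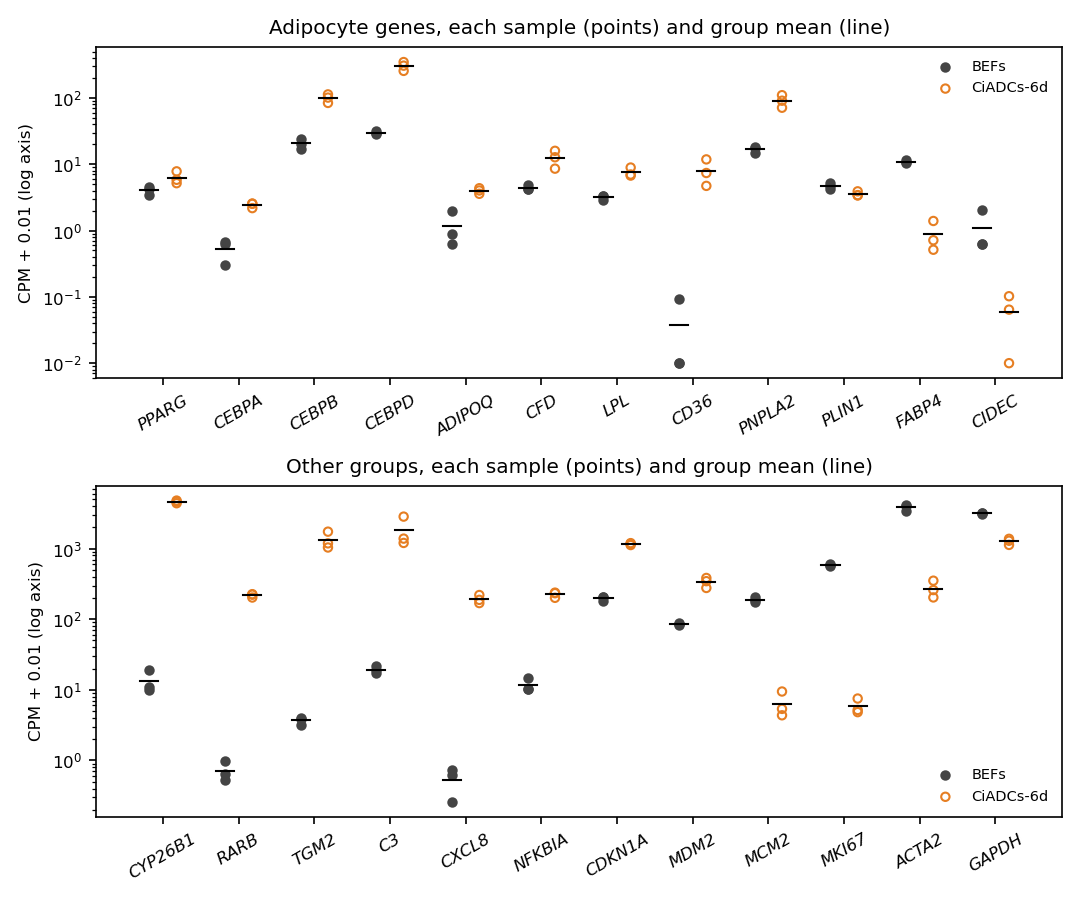
CPM + 0.01 on a log axis for 12 adipocyte genes (upper panel) and 12 genes of other groups (lower panel), with each BEFs sample as a filled point, each CiADCs-6d sample as an open point and the group mean as a line. C/EBP genes, ADIPOQ, CFD, LPL, CD36 and PNPLA2 lie higher in CiADCs-6d, while FABP4 and CIDEC lie lower and PLIN1 did not pass the test.

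The fibroblast markers fell in the main. Of 27 tested, 18 fell, 14 of them by at least 2-fold, as 13.4% of all tested genes did, and 3 rose, with a median log2 fold change of -1.05. COL1A1 and COL1A2, the chains of type I collagen, fell by 3.00 (SE 0.18) and 2.69 (SE 0.20) on the log2 scale, FAP by 3.53 (SE 0.22) and PRRX1, a mesenchymal transcription factor, by 2.35 (SE 0.15). COL3A1, the chain of type III collagen, had 11049, 10865 and 10326 CPM in BEFs and 11149.6, 7874 and 8312 CPM in CiADCs-6d, so its groups overlapped (log2 fold change -0.24, adjusted p = 0.225). PDGFRA, PDGFRB, S100A4, TWIST2 and MFAP5 did not pass the test either, and DDR2, FBN1 and TWIST1 rose by between 0.41 and 0.70. COL1A1 still stood at 582 ± 37.9 FPKM in CiADCs-6d (SD, n = 3), and VIM, the intermediate filament of mesenchymal cells, at 639.5 ± 62.4 FPKM. Each value is a mean over the cells of a culture, so fewer cells of a type and less RNA per cell cannot be told apart. TWIST1 missed the threshold without BEFs replicate 2 or 3, or CiADCs-6d replicate 1, 2 or 3 (adjusted p from 0.0513 to 0.121). COL3A1 passed the threshold without CiADCs-6d replicate 1 (adjusted p = 0.034). PDGFRB passed the threshold without BEFs replicate 3, either of CiADCs-3d replicates 1 and 2, or CiADCs-6d replicate 2 (adjusted p from 0.0275 to 0.0481).

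Across the 14020 genes, 3075 were higher in CiADCs-6d (21.9%) and 1874 were lower (13.4%) by both thresholds. Higher genes made up 62.13% of the calls. At the adjusted p alone, 4991 rose and 4469 fell. The quartiles of the log2 fold change over all tested genes were -0.57 and 0.86. A log2 fold change of at least 4 was reached by 648 higher genes, and one of at most -4 by 143 lower genes. Beyond 8 there were 94 higher and 2 lower genes. Every CiADCs-6d sample lay above every BEFs sample for 37.7% of tested genes and below for 35%. The groups overlapped for 25 of the higher and 7 of the lower genes. Without CiADCs-6d replicate 1 there were 3081 higher and 2160 lower genes.

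The share of higher genes was larger the lower the level in fibroblasts. Of 1862 tested genes under 1 CPM in BEFs, 69.87% were higher in CiADCs-6d and 3.276% lower. A gene of that kind passed the filter on low counts mainly through its counts in induced cells, so a rise was built into that share. From 1 to 10 CPM 26.3% of 3315 genes were higher and 15.9% lower. Between 10 and 100 CPM the shares were 10.92% and 12.76% of 7164 genes, close to even. Of the 1679 genes of at least 100 CPM in BEFs, 7.147% were higher and 22.16% lower, so the most abundant transcripts of fibroblasts fell more often than they rose. By FPKM, 683 tested genes went from under 1 in every BEFs sample to at least 1 in every CiADCs-6d sample, and 335 went the other way. Of 411 tested loci without an NCBI Gene ID, which were assembled from the reads, 194 were higher and 43 lower. Of all tested genes 21.9% were higher and 13.4% lower.

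**Figure D2:**
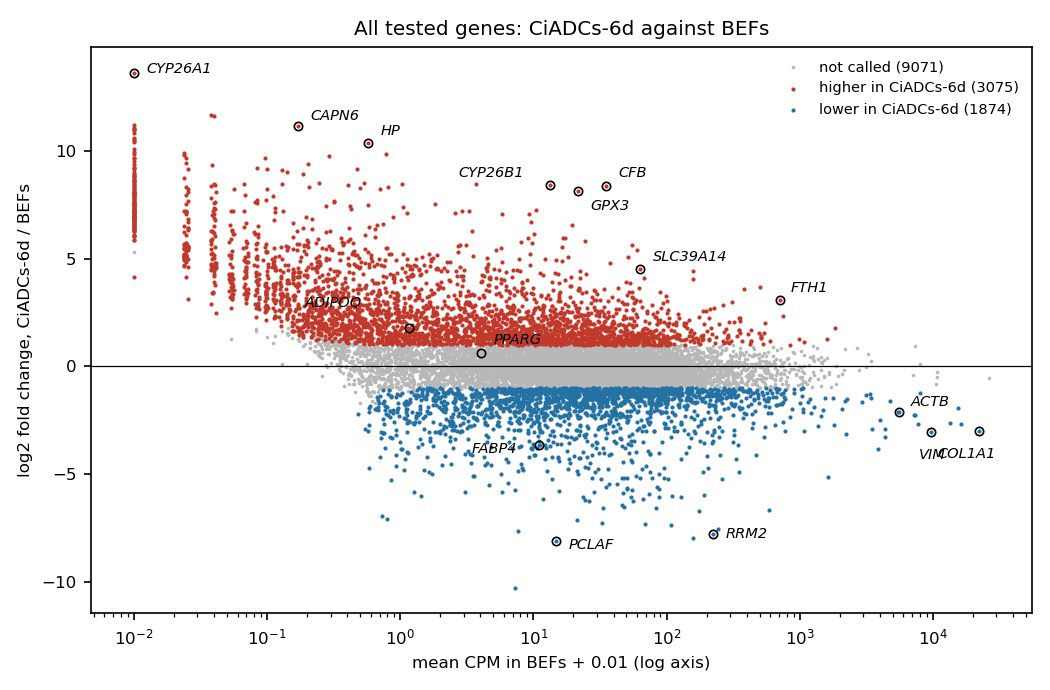
Log2 fold change of CiADCs-6d over BEFs against the mean CPM in BEFs (log axis, 0.01 added) for the 14020 tested genes, with 3075 higher genes in red, 1874 lower genes in blue and 9071 genes that were not called in grey. The largest rises lie at the left, among genes with hardly any count in BEFs, and the abundant genes at the right lie mostly at or below 0.

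FTH1, the heavy chain of the iron store ferritin, gained the most transcript in FPKM and was at 6480.5 ± 327 in CiADCs-6d against 759.5 ± 2.05 in BEFs (SD, n = 3). CFB, complement factor B, and GPX3, the secreted glutathione peroxidase, followed it. CFB had 38.4, 36 and 31 CPM in BEFs and 13889, 10566 and 11105 CPM in CiADCs-6d, a log2 fold change of 8.40 (SE 0.20, adjusted p = 4.39e-11). GPX3 had 20.2, 24.1 and 20.2 CPM in BEFs and 6714, 5439.5 and 6206 CPM in CiADCs-6d, a log2 fold change of 8.15 (SE 0.16, adjusted p = 2.44e-11). Each of the 3 genes separated the groups, and CFB and GPX3 went from modest levels to 4902 ± 749 and 3892 ± 385 FPKM. Much of the rest of the 15 largest gains is secreted. SERPINE2 and CST3, inhibitors of serine and cysteine proteases, reached 3142 ± 122 and 2678 ± 434 FPKM, and CLU, the chaperone clusterin, 2862 ± 324 FPKM. MMP2, a gelatinase, was already abundant and rose by 1.76 (SE 0.12) on the log2 scale. M-SAA3.2, an acute phase serum amyloid A, rose by 7.10 (SE 0.25), ADM, the vasodilator adrenomedullin, by 4.42 (SE 0.12), the monocyte chemokine CCL2 by 5.97 (SE 0.24) and IGFBP3, which binds insulin-like growth factors, by 5.64 (SE 0.20). M-SAA3.2 has a close copy in the table, SAA3, and reads may have been split between them. TSPO and ITM2B, membrane proteins of mitochondria and of the secretory pathway, rose by 2.67 (SE 0.11) and 2.25 (SE 0.09).

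The 15 largest losses in FPKM were genes of the cytoskeleton and matrix, the annexin ANXA2 and GAPDH, an enzyme of glycolysis. VIM fell from 5206 ± 410 to 639.5 ± 62.4 FPKM (SD, n = 3), a log2 fold change of -3.06 (SE 0.12, adjusted p = 1.03e-09). The cytoplasmic actins ACTB and ACTG1 fell by 2.11 (SE 0.21) and 2.24 (SE 0.22) on the log2 scale, and ACTA2, smooth muscle actin, by 3.84 (SE 0.24). ACTB had 5459, 5393 and 5723 CPM in BEFs and 1719, 949 and 1183 CPM in CiADCs-6d, so the transcript to which the study scaled its qRT-PCR was not at the same level in the groups. GAPDH, often used in the same way, had 3153, 3054 and 3241 CPM in BEFs and 1292, 1129 and 1376 CPM in CiADCs-6d (log2 fold change -1.32, SE 0.10, adjusted p = 2.59e-07). RPLP0, a protein of the ribosomal stalk and another such reference, had 2799.6, 2678 and 2855 CPM in BEFs and 2399.8, 2231 and 2656 CPM in CiADCs-6d and missed the threshold (log2 fold change -0.19, adjusted p = 0.122). TUBA1B and TUBB, the main tubulins, fell by 2.89 (SE 0.13) and 3.14 (SE 0.15). THBS1, TNC and BGN, glycoproteins and a proteoglycan of the matrix, fell by 1.94 (SE 0.19), 2.61 (SE 0.15) and 2.51 (SE 0.18). COL6A1 and COL6A2 fell by 0.81 (SE 0.12) and 1.23 (SE 0.13), and ANXA2, which binds membranes, by 1.59 (SE 0.09). Other abundant transcripts stayed among the 15 highest in both groups. FN1, fibronectin, and SPARC, another matrix glycoprotein, fell by only 0.55 (SE 0.15) and 0.42 (SE 0.15), and COX1, RPLP1 and S100A4, a mitochondrial oxidase subunit, a ribosomal stalk protein and a calcium-binding protein, did not pass the test. TIMP1, an inhibitor of matrix proteases, and TMSB4X, which binds actin monomers, entered the 15 highest with rises of 0.38 (SE 0.10) and 0.35 (SE 0.10). The plot of FPKM gains and losses gives each sample. SPARC missed the threshold without BEFs replicate 1 or 2, or CiADCs-6d replicate 2 or 3 (adjusted p from 0.052 to 0.0817). RPLP0 passed the threshold without CiADCs-6d replicate 3 (adjusted p = 0.0496).

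**Figure D3:**
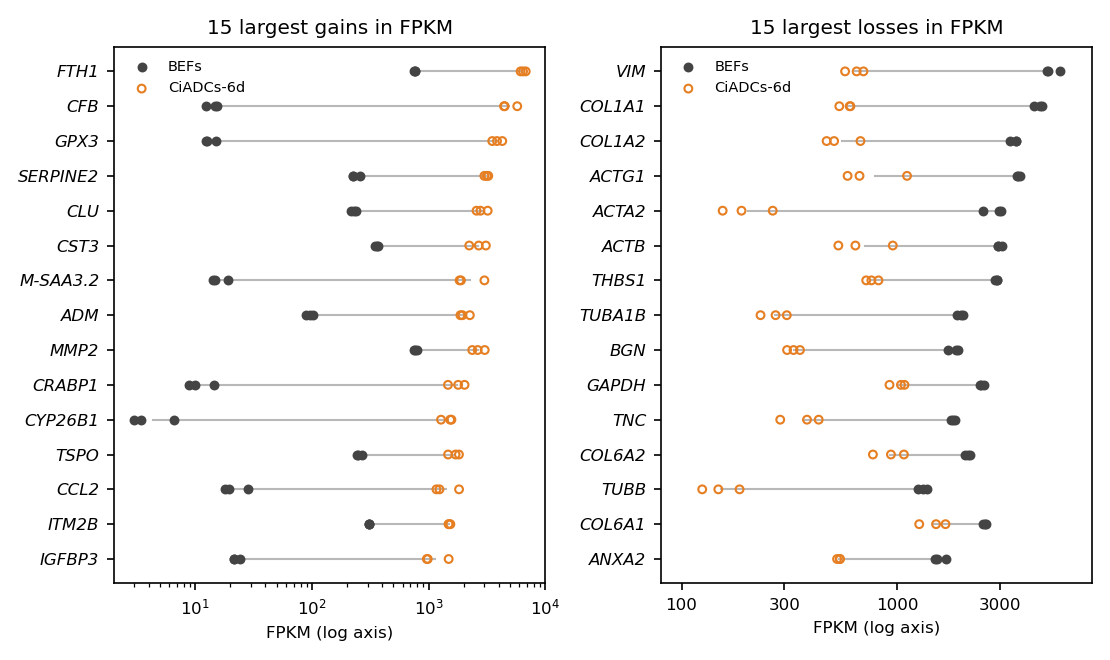
FPKM on a log axis in each BEFs sample (filled) and each CiADCs-6d sample (open) for the 15 genes with the largest gain (left) and the 15 with the largest loss (right) of mean FPKM, joined by a line between the group means. For all 30 genes the samples of the groups are apart, and CFB, GPX3, CRABP1 and CYP26B1 start near or below 20 FPKM in BEFs.

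Among genes of at least 10 CPM in the higher group, the largest fitted fold changes belonged to genes that were silent in fibroblasts. CYP26A1 (ncbi_539047), which degrades retinoic acid, had no count in BEFs and 124, 50.3 and 49.7 CPM in CiADCs-6d, at least 561-fold higher against 3 counts per library. LGALS9, a galectin, ZC3H12D, a ribonuclease of the ZC3H12 family, UBD, a ubiquitin-like protein induced by inflammation, VSNL1, a neuronal calcium sensor, and RASSF10 had no count in BEFs either, and were at least 105-, 93.5-, 92.3-, 89.1- and 81.5-fold higher. Next by level came S100A9, a calcium-binding protein of inflammation, and MT3, a metallothionein, at 7.88, 9.52 and 10.1 CPM and 9.82, 7.05 and 7.79 CPM. In all, 123 tested genes had no count in BEFs. ADORA2A (ncbi_617828), the adenosine A2A receptor, had 0, 0.0834 and 0 CPM in BEFs and 116, 96.6 and 128 CPM in CiADCs-6d, and TNFRSF9 (ncbi_520341), a costimulatory receptor, had 0, 0 and 0.0888 CPM in BEFs and 84.7, 134 and 119.5 CPM in CiADCs-6d. With 2 counts each in BEFs, ADORA2A was 3838-fold (95% interval 1062 to 31702) and TNFRSF9 3816-fold (95% interval 1056 to 31516) higher by CPM, with exact intervals that cover counting error only. TNFRSF9 was 2470-fold higher without BEFs replicate 2. No count was left in BEFs for ADORA2A without BEFs replicate 2, nor for TNFRSF9 without BEFs replicate 3. A calpain, CAPN6 (ncbi_539360), had 0.0932, 0.167 and 0.222 CPM in BEFs and 495, 326 and 328 CPM in CiADCs-6d (log2 fold change 11.16, SE 0.30, adjusted p = 7.99e-11). HP (ncbi_280692), haptoglobin, and CP (ncbi_514194), ceruloplasmin, are plasma proteins of the liver that bind haemoglobin and carry copper. HP had 0.373, 0.375 and 0.933 CPM in BEFs and 1135, 552 and 577 CPM in CiADCs-6d, and CP had 0.652, 0.918 and 0.755 CPM in BEFs and 688, 807 and 687 CPM in CiADCs-6d. Their log2 fold changes were 10.38 (SE 0.45, adjusted p = 1.88e-09) and 9.86 (SE 0.25, adjusted p = 5.56e-11).

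Other genes among the 20 largest rises were ELAPOR1, ADGRD1, an adhesion receptor, CD74, the invariant chain of MHC class II, and GATA6, a factor of endoderm and heart. ELAPOR1, ADGRD1 and CD74 rose by 9.78 (SE 0.25), 9.39 (SE 0.36) and 9.70 (SE 0.82) on the log2 scale, and GATA6, with 2 counts in BEFs, was 789-fold (95% interval 218 to 6524) higher. SLCO2B1 and SLC38A4, carriers of organic anions and of neutral amino acids, went from 1 count each in BEFs to 26.3, 15.9 and 17.4 CPM and 16.1, 17.8 and 15.8 CPM, and were 1358-fold (95% interval 243 to 53660) and 1128-fold (95% interval 202 to 44616) higher. GSTA1, a glutathione transferase with close copies, had 28.1, 8.88 and 6.44 CPM in CiADCs-6d and LOC531557, which belongs to the apolipoprotein L copies, had 19.6, 18.1 and 17.6 CPM, and reads of both may be shared with their copies. They also had 1 count each in BEFs, and were 1010.2-fold (95% interval 181 to 39942) and 1254-fold (95% interval 225 to 49592) higher. Fitted fold changes of genes with at most 3 counts in a group move with single samples, so these ratios are given instead. GSTA1 was 527-fold higher without CiADCs-6d replicate 1. The ratios of GSTA1 and SLC38A4 were 654 and 730 without BEFs replicate 2. The counts in BEFs came from replicate 2 for SLCO2B1 and LOC531557 and from replicate 3 for GSTA1 and SLC38A4.

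The largest falls belonged to genes of proliferation. PCLAF, which binds the replication clamp, had 16.3, 14.9 and 13.5 CPM in BEFs and 0.0922, 0.0458 and 0 CPM in CiADCs-6d and was 307-fold (95% interval 105 to 1491) lower, and 599-fold without CiADCs-6d replicate 1. RRM2 (ncbi_508167), the subunit of ribonucleotide reductase made in S phase, had 231, 236 and 208 CPM in BEFs and 1.34, 1.19 and 0.433 CPM in CiADCs-6d (log2 fold change -7.79, SE 0.27, adjusted p = 3.48e-10). KIF20A and CDC20, a kinesin of cytokinesis and an activator of the anaphase-promoting complex, fell from 244 ± 12.2 CPM and 109 ± 2.48 CPM to 1.3 ± 0.211 CPM and 0.647 ± 0.329 CPM (SD, n = 3). MKI67, the Ki-67 antigen, fell from 588 ± 27.1 CPM to 5.83 ± 1.47 CPM (log2 fold change -6.65, SE 0.30, adjusted p = 2.77e-09). In all, 17 of the 20 largest falls were genes of DNA synthesis or cell division or their regulators, among them UHRF1, FOXM1, E2F8, CDT1, BUB1, KIF2C, KIF14, KIF15, KIF18B, CDCA3, PIMREG and RECQL4, counted after their names were seen. The other 3 were C1QTNF3 (ncbi_531659), a secreted protein of the C1q and TNF-related family, NDUFA4L2 and LRRC17. C1QTNF3 had 162, 169.8 and 138 CPM in BEFs and 0.922, 0.366 and 0.541 CPM in CiADCs-6d, a log2 fold change of -7.99 (SE 0.24, adjusted p = 1.47e-10). NDUFA4L2, a mitochondrial protein induced by low oxygen, fell by 6.60 (SE 0.43) on the log2 scale. Only 3 tested genes with counts in BEFs had none in CiADCs-6d. INSC, which orients the spindle, had 6.29, 7.3 and 8.13 CPM in BEFs and was at least 49.6-fold lower against 3 counts per library, and LGI2 and BAALC were under 1.1 CPM in each BEFs sample. FOXM1 stood at a log2 fold change of -7.54 without CiADCs-6d replicate 2, E2F8 at -8.68 without CiADCs-6d replicate 2, KIF2C at -8.22 without CiADCs-6d replicate 2 and LRRC17 at -7.33 without CiADCs-6d replicate 3.

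The table annotates genes with KEGG pathways, and 5452 tested genes carried at least 1, of which 23.51% were higher and 12.88% lower. Of 300 pathways with 15 to 300 tested genes, those with the largest share of higher genes were named for immune diseases and infections. Graft-versus-host disease had 19 of 21 higher, allograft rejection and autoimmune thyroid disease 17 of 19 each, and type I diabetes mellitus 19 of 25. These 4 pathways share 18 tested genes, of which 16 are bovine MHC genes by their description. The other 2 were FAS, a death receptor, and CD80, a costimulatory ligand, which rose by 1.02 (SE 0.16) and 1.59 (SE 0.31) on the log2 scale. The MHC class I genes are near-identical copies, so reads may have been assigned to the wrong one. JSP.1, BOLA and BoLA, class I genes, rose by 3.18 (SE 0.17), 2.33 (SE 0.13) and 2.08 (SE 0.11) on the log2 scale, and B2M, their common light chain, had 381, 377 and 356 CPM in BEFs and 770, 900.4 and 853 CPM in CiADCs-6d (log2 fold change 1.18, SE 0.10, adjusted p = 4.33e-07). TAP1, the peptide transporter that loads them, rose by 2.26 (SE 0.15), and PSMB8, PSMB9 and PSMB10, the subunits of the immunoproteasome, by 1.82 (SE 0.13), 1.10 (SE 0.25) and 2.85 (SE 0.13). MHC class II genes present peptides from outside the cell. BOLA-DMA and BOLA-DMB, which help to load them, rose by 1.89 (SE 0.25) and 2.22 (SE 0.17). Others had 1 count or none in BEFs, of which BOLA-DRB3 was 208-fold (95% interval 36.9 to 8265), BOLA-DRA 74.5-fold (95% interval 12.9 to 2985) and BOLA-DQB1 at least 12.9-fold higher, at no more than 5.21 CPM in a CiADCs-6d sample. Without CiADCs-6d replicate 1 BOLA-DRB3 was 130-fold and BOLA-DRA 27-fold higher, and BOLA-DRA then missed the threshold (adjusted p = 0.0687). Without BEFs replicate 2 they were 135-fold and 48.2-fold higher, and without BEFs replicate 3 no count was left in BEFs. African trypanosomiasis had 22 of 31 higher, and its members included 10 apolipoprotein L loci, all higher and likely to share reads, the adhesion molecules ICAM1 and VCAM1, and IL1B.

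Complement genes were another group. Staphylococcus aureus infection and complement and coagulation cascades had 19 of 26 and 27 of 45 genes higher, against 23.51% of all tested genes with a pathway. C3 (ncbi_280677), the central component, had 21.6, 19.4 and 17.1 CPM in BEFs and 2839.5, 1203 and 1385 CPM in CiADCs-6d (log2 fold change 6.55, SE 0.37, adjusted p = 1.8e-08), and its highest value was that of CiADCs-6d replicate 1. C2, which like CFB forms the C3-cleaving enzyme, rose by 5.56 (SE 0.18), and the inhibitors CFI and SERPING1 by 3.52 (SE 0.15) and 2.64 (SE 0.15) on the log2 scale. PLAT, the tissue plasminogen activator, rose by 5.08 (SE 0.27). In the list of acute phase and complement 31 genes were in the table and 19 were tested. Of these 16 rose, against 35.6% of all tested genes, with a median log2 fold change of 2.72. Any member near 0 in BEFs passed the filter on low counts mainly through induced cells, so its rise was built in. CD55, C4A and PTX3 did not pass the test.

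Retinol metabolism had 14 of 21 genes higher, against 23.51% of all tested genes with a pathway, and retinoid genes were among the largest responses. CYP26B1 (ncbi_540868), a second retinoic acid hydroxylase, had 9.97, 10.9 and 19.1 CPM in BEFs and 4627, 4392 and 4791 CPM in CiADCs-6d (log2 fold change 8.43, SE 0.26, adjusted p = 1.6e-10), which made it far more abundant than CYP26A1, at 1462 ± 159 against 43.9 ± 25.2 FPKM (SD, n = 3). CRABP1, a cytosolic carrier of retinoic acid, had 8.34, 9.3 and 13.8 CPM in BEFs and 1860, 1324 and 1682 CPM in CiADCs-6d (log2 fold change 7.27, SE 0.23, adjusted p = 1.77e-10). RARB, a receptor that retinoids induce, rose from 0.698 ± 0.233 CPM to 217 ± 12.6 CPM, DHRS3, which turns retinal back to retinol, from 9.66 ± 0.488 CPM to 1020.4 ± 142 CPM, and TGM2, a transglutaminase, from 3.68 ± 0.406 CPM to 1321 ± 369.6 CPM. STRA6, for retinol uptake, rose by 5.28 (SE 0.26) on the log2 scale. Of 19 tested targets of the retinoic acid receptors, 13 rose and 3 fell, where 35.6% of all tested genes rose and 31.9% fell. RARRES1, RBP4 and RARA fell by 1.88 (SE 0.34), 1.42 (SE 0.11) and 0.89 (SE 0.10). CRABP2, LRAT and MEIS1 did not pass the test. Each of the rising genes named here separated the groups without overlap.

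Of the cytokine and chemokine genes that were tested, nearly all rose. The GO function cytokine activity had 16 of 19 tested genes higher, against 20.93% of all tested genes with a GO function. In the list of chemokines and cytokines 27 genes were in the table and 21 were tested. Of these 19 rose, against 35.6% of all tested genes, with a median log2 fold change of 4.69. Members near 0 in BEFs, such as CXCL8 and IL1B, passed the filter on low counts mainly through induced cells, so their rise was built in. CXCL8 (ncbi_280828), which attracts neutrophils, had 0.606, 0.25 and 0.711 CPM in BEFs and 188, 220.1 and 169 CPM in CiADCs-6d (log2 fold change 8.53, SE 0.29, adjusted p = 2.87e-10). IL1A, CCL20 and CX3CL1 rose by 8.49 (SE 0.53), 7.65 (SE 0.55) and 6.92 (SE 0.29) on the log2 scale, and IL6 from 4.38 ± 1.29 CPM to 52.1 ± 4.22 CPM. CXCL2, CXCL3 and CXCL5 rose too, and as members of a family with close copies their reads may be shared. IL1B went from no count in BEFs to 0.784, 1.28 and 2.06 CPM, at least 10.4-fold higher. With IL1B at that bound the median of the list was 4.54. IL33 and IL11 did not pass the test. CCL20 stood at a log2 fold change of 8.27 without BEFs replicate 2 and CXCL2 at 7.88 without BEFs replicate 3. IL11 passed the threshold without CiADCs-3d replicate 1 (adjusted p = 0.0467).

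NF-kappaB is a transcription factor of inflammation that drives many of these genes. Of 20 tested genes of its pathway and feedback, 18 rose and BCL3 fell by 0.37 (SE 0.13), with a median of 3.43. The wider KEGG NF-kappa B signaling pathway had 44 rising and 21 falling of 85 and a median of 0.44. Of all tested genes 35.6% rose and 31.9% fell. NFKBIA, an inhibitor that NF-kappaB itself induces, had 10.4, 10.2 and 14.9 CPM in BEFs and 234, 201 and 238 CPM in CiADCs-6d (log2 fold change 4.24, SE 0.17, adjusted p = 9.55e-10). TNFAIP3, another, rose by 4.10 (SE 0.17). SOD2, the mitochondrial superoxide dismutase, had 22.2, 22.9 and 28.6 CPM in BEFs and 1635, 1239.5 and 1305 CPM in CiADCs-6d (log2 fold change 5.83, SE 0.17, adjusted p = 1.11e-10). ICAM1, VCAM1 and BIRC3 rose by 4.96 (SE 0.16), 4.35 (SE 0.18) and 3.40 (SE 0.27). RELA, a subunit of the factor, missed the threshold (log2 fold change -0.14), while REL rose by 3.94 (SE 0.31). The interferon list was split, with 14 of 26 tested genes rising and 7 falling. IRF1 and RSAD2 rose by 3.22 (SE 0.15) and 3.83 (SE 0.77), IFIT3, IRF9 and RIGI fell by 1.11 (SE 0.21), 1.09 (SE 0.22) and 0.88 (SE 0.17), and MX1 rose only by 0.45 (SE 0.14). BCL3 missed the threshold without BEFs replicate 1 or 2 (adjusted p from 0.0567 to 0.0767). MX1 missed the threshold without BEFs replicate 2, or CiADCs-6d replicate 1 (adjusted p from 0.0515 to 0.0595).

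The GO process polyamine catabolic process had 18 of 29 tested genes higher, and polyamine biosynthetic process 15 of 25. Loci assembled from the reads, with no gene name, made up 25 of the 29 genes of the former, so its count does not describe known polyamine enzymes. Of its 4 named genes SAT1, which acetylates spermidine, had 92.8, 90.4 and 100.1 CPM in BEFs and 687, 720.4 and 734 CPM in CiADCs-6d (log2 fold change 2.92, SE 0.11, adjusted p = 5.52e-10), and SAT2, PAOX and SMOX did not pass the test. Neuroactive ligand-receptor interaction had 56 of 93 genes higher, against 23.51% of all tested genes with a pathway. The 56 included ADORA2A and the lysophospholipid receptors S1PR5, LPAR3 and S1PR1. LPAR3 and S1PR1 rose by 7.90 (SE 0.29) and 4.15 (SE 0.41) on the log2 scale, and S1PR5 was 403-fold (95% interval 111 to 3336) higher, and 261-fold without BEFs replicate 2. PAOX passed the threshold without CiADCs-6d replicate 1 (adjusted p = 0.0178).

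**Figure D4:**
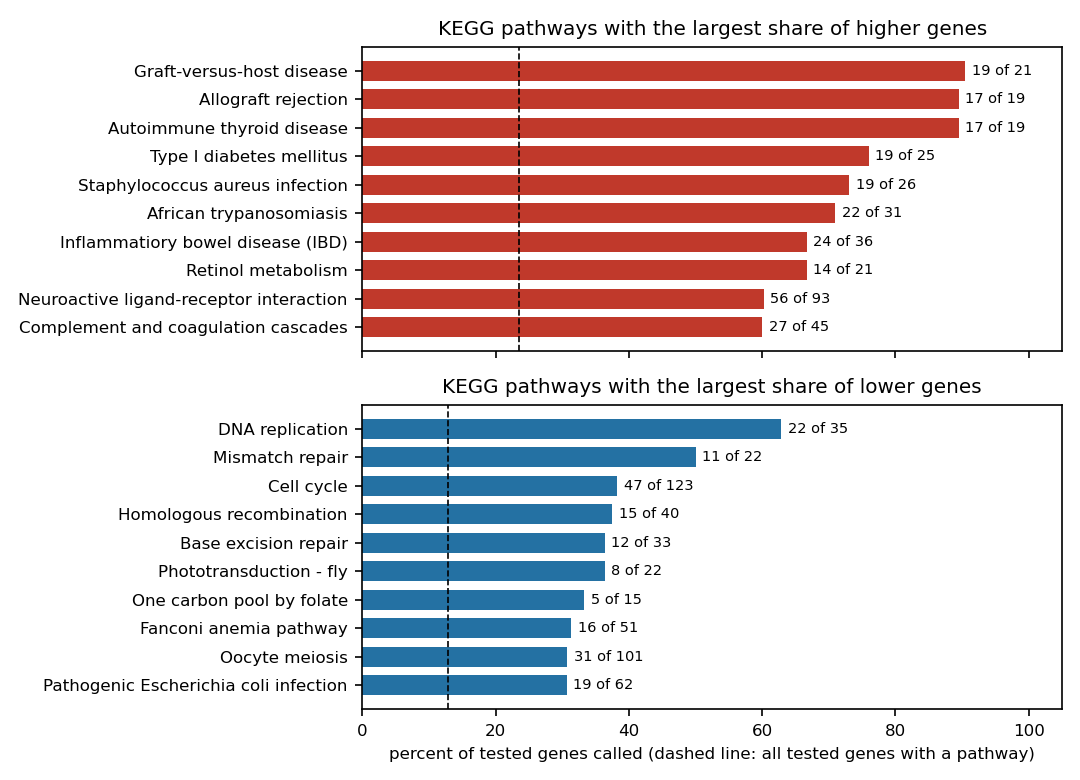
Percent of tested genes of a KEGG pathway that were higher (upper panel, red) or lower (lower panel, blue) in CiADCs-6d, for the 10 pathways with the largest share in each direction among 300, with counts beside the bars. Dashed lines mark the 23.51% and 12.88% of all tested genes with a pathway, and 4 of the upper pathways, named for immune diseases, share 18 genes, mostly of the MHC.

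The pathways with the largest share of lower genes were those of DNA replication (22 of 35 genes), mismatch repair (11 of 22), the cell cycle (47 of 123), homologous recombination (15 of 40) and base excision repair (12 of 33). Of all tested genes with a pathway 12.88% were lower. The GO components chromosome, centromeric region and spindle had 19 of 37 and 34 of 88 genes lower, against 14.14% of all tested genes with a component. For the lists below, 31.9% of all tested genes fell and 35.6% rose. All 38 tested genes of the list for mitosis fell, with a median log2 fold change of -4.92, and 33 of 34 for DNA replication, with a median of -2.45. The exception, ORC6 of the origin recognition complex, had a log2 fold change of -0.01. MCM2, a subunit of the replicative helicase, had 184, 177 and 207 CPM in BEFs and 9.45, 4.35 and 5.36 CPM in CiADCs-6d (log2 fold change -4.89, SE 0.27, adjusted p = 1.4e-08). MCM5, of the same complex, fell by 6.07 (SE 0.30). PCNA, the replication clamp, fell by 2.80 (SE 0.12), and CCNB1 and TOP2A by 6.08 (SE 0.38) and 5.21 (SE 0.29) on the log2 scale. Of the centromere proteins, 20 of 21 tested fell, and CENPV rose by 1.74 (SE 0.12). Of 22 genes of homologous recombination, 19 fell, among them BRCA1, BRCA2 and FANCD2 by 3.96 (SE 0.19), 2.95 (SE 0.28) and 4.43 (SE 0.25), and XRCC3 rose by 0.69 (SE 0.16).

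Some inhibitors of the cell cycle rose. In the list of cyclins and CDK inhibitors, 7 of 24 tested genes rose (29.17%) and 12 fell (50%). The shares of all tested genes were 35.6% and 31.9%. That count pools both kinds of gene and gives no share for inhibitors alone. CDKN1A, the p21 inhibitor of cyclin-dependent kinases, had 209, 203 and 181 CPM in BEFs and 1123, 1196 and 1171 CPM in CiADCs-6d (log2 fold change 2.56, SE 0.14, adjusted p = 1.68e-08). CDKN2B and CDKN2D, inhibitors of the kinases that act with cyclin D, rose by 2.37 (SE 0.13) and 2.34 (SE 0.33) on the log2 scale and RB1, the retinoblastoma protein, by 1.27 (SE 0.18). CDKN1B and CDKN1C did not pass the test. CCND1 and CCNE1, cyclins of G1, fell by only 0.98 (SE 0.11) and 0.97 (SE 0.19), while the factors E2F1 and E2F2 fell by 4.67 (SE 0.22) and 4.14 (SE 0.43). Of 24 tested targets of p53, 21 rose and 2 fell, with a median of 1.30, while the wider KEGG p53 signaling pathway had 35 rising and 29 falling of 75 and a median of 0.17. MDM2, which turns p53 over, had 82.4, 88.1 and 85.1 CPM in BEFs and 384, 346 and 277 CPM in CiADCs-6d, and BBC3 and PMAIP1, which promote cell death, rose by 4.24 (SE 0.13) and 3.94 (SE 0.41). DDB2 and PLK3 fell by 1.26 (SE 0.16) and 0.56 (SE 0.19). E2F2 stood at a log2 fold change of -5.11 without CiADCs-6d replicate 1. PLK3 missed the threshold without BEFs replicate 3, or CiADCs-6d replicate 2 or 3 (adjusted p from 0.0534 to 0.101). CDKN1B passed the threshold without CiADCs-6d replicate 1 (adjusted p = 0.00507).

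Genes of lipid metabolism were split by step. FADS1, a desaturase of polyunsaturated fatty acids, had 67.7, 59.6 and 74.4 CPM in BEFs and 1087, 1179.8 and 1218 CPM in CiADCs-6d (log2 fold change 4.11, SE 0.15, adjusted p = 5.86e-10). FADS2, which acts before it, rose by 3.46 (SE 0.17). FASN, the fatty acid synthase, and ACACA, which together build palmitate, fell by 1.20 (SE 0.13) and 1.00 (SE 0.10), and ELOVL6 by 1.42 (SE 0.12). The FAS of the qRT-PCR in the paper is FASN by its primer accession. SCD, which makes monounsaturated fatty acids, had 168, 164 and 194 CPM in BEFs and 138, 303 and 279 CPM in CiADCs-6d and did not pass the test (adjusted p = 0.179). Of 16 genes of fatty acid synthesis, 7 rose and 7 fell, where 35.6% of all tested genes rose and 31.9% fell. MLXIPL, a carbohydrate-sensing activator of these genes, rose from 0.689 ± 0.167 CPM to 22.4 ± 6.09 CPM. For triglyceride assembly, 9 of 14 rose and 2 fell. GPAT3, an acyltransferase of its first step, had 4.1, 5.38 and 4.09 CPM in BEFs and 122, 126 and 118 CPM in CiADCs-6d (log2 fold change 4.75, SE 0.32, adjusted p = 7.41e-08), and AGPAT2, of the next step, fell by 2.47 (SE 0.14). PNPLA2, the main triglyceride lipase, rose from 16.8 ± 1.63 CPM to 90.6 ± 19.4 CPM, and CD36, a fatty acid transporter, from 2 counts in BEFs, both in replicate 2, to 4.7, 11.8 and 7.36 CPM, 272-fold (95% interval 74.8 to 2249.9) higher. For fatty acid oxidation, 11 of 26 rose and 6 fell. PDK4, which spares glucose, rose by 4.28 (SE 0.17), CPT2 and CPT1A, of the mitochondrial carnitine shuttle, by 1.95 (SE 0.18) and 0.90 (SE 0.12), and ACADVL and HADHA did not pass the test. APOE and ABCA1, of cholesterol efflux, rose by 2.22 (SE 0.13) and 2.91 (SE 0.12). KEGG's PPAR signaling pathway had 23 of 58 genes higher (39.66%) and 8 lower (13.79%), against 23.51% and 12.88% of all tested genes with a pathway. Regulation of lipolysis in adipocyte had 10 of 39 higher (25.64%) and 5 lower (12.82%), near those shares. The adipocytokine signaling pathway had 21 of 56 higher (37.5%) and 2 lower (3.571%). In PPAR signaling FABP7, ANGPTL4, which inhibits LPL, and PLTP, which transfers phospholipids, rose, the latter 2 by 7.10 (SE 0.19) and 5.79 (SE 0.33), while FABP5 and FABP3 fell by 1.84 (SE 0.25) and 1.31 (SE 0.18). FABP7, the brain type of these fatty acid carriers, had no count in BEFs and 1.71, 1.19 and 1.19 CPM in CiADCs-6d, at least 10.3-fold higher. It passed the filter on low counts only through induced cells, so its rise was built in. SCD passed the threshold without CiADCs-6d replicate 1 (adjusted p = 0.0151). HADHA passed the threshold without CiADCs-3d replicate 1, or CiADCs-6d replicate 1 (adjusted p from 0.00114 to 0.0457).

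Glycolysis leaned down, and sterol synthesis did so in the list used here but not in KEGG. Of 24 tested genes of glycolysis, 13 fell and 6 rose, with a median of -0.44, where 31.9% of all tested genes fell and 35.6% rose. ENO1 had 2054, 2004 and 2214 CPM in BEFs and 519, 492 and 573 CPM in CiADCs-6d (log2 fold change -1.99, SE 0.10, adjusted p = 6.87e-09), and TPI1, PGK1 and PKM fell by 1.78 (SE 0.10), 1.44 (SE 0.09) and 1.30 (SE 0.13). The glucose transporter SLC2A3 and hexokinase 2, HK2, rose by 3.56 (SE 0.22) and 1.45 (SE 0.14), and SLC2A1 missed the threshold (log2 fold change -0.01). Of 23 genes of cholesterol synthesis, 11 fell and 4 rose, with HMGCS1 falling by 1.89 (SE 0.18). The KEGG pathway steroid biosynthesis was even, with 7 rising and 6 falling of 17. Citrate cycle genes moved little, with 7 rising and 6 falling of 24 and a median of -0.03. KEGG oxidative phosphorylation had 6 of 122 genes higher and 3 lower, far under the shares of all genes, and of 18 subunits of ATP synthase 10 fell, by at most 0.98.

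The actin cytoskeleton and the matrix changed in different directions by part. Of 19 tested genes of the smooth muscle contractile list, 12 fell, among them TAGLN, CNN1 and MYL9 by 2.78 (SE 0.15), 2.07 (SE 0.28) and 1.73 (SE 0.22), and MYH11 rose by 2.49 (SE 0.51). The GO components actin filament bundle and actin filament had 10 of 22 and 9 of 22 genes lower. Of 26 TGF-beta targets 15 fell and 9 rose, where 31.9% of all tested genes fell and 35.6% rose. ELN, elastin, fell by 5.12 (SE 0.22) and CCN2 by 1.47 (SE 0.14), while ID1, ID2 and IGFBP3 rose. Collagen chains were split, with 12 higher and 15 lower of 35. COL15A1, COL16A1 and COL5A3 fell by 3.02 (SE 0.10), 2.84 (SE 0.14) and 2.69 (SE 0.14), and COL6A6 and COL9A3 rose by 3.73 (SE 0.37) and 3.24 (SE 0.73). COL25A1, with 1 count in BEFs, in replicate 2, was 71.2-fold (95% interval 12.3 to 2856) higher. Basement membrane genes rose more often than they fell, 10 against 4 of 19. NID1, nidogen, had 158, 150.3 and 165 CPM in BEFs and 2941, 2368 and 2648 CPM in CiADCs-6d (log2 fold change 4.07, SE 0.13, adjusted p = 2.38e-10), the laminin chains LAMA4, LAMB1 and LAMC1 rose by 2.55 (SE 0.10), 2.32 (SE 0.12) and 2.03 (SE 0.10), and COL4A1 and COL4A2 fell by 1.11 (SE 0.13) and 1.07 (SE 0.13). MMP1, an interstitial collagenase, rose by 4.55 (SE 0.32), and MMP9 and MMP19 fell by 3.13 (SE 0.40) and 3.53 (SE 0.35). MYH11 stood at a log2 fold change of 1.60 without CiADCs-6d replicate 1, COL9A3 at 3.93 without BEFs replicate 1 and at 2.64 without BEFs replicate 2 and MMP19 at -4.18 without CiADCs-6d replicate 1.

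In the lists used here, signalling genes rose more often than they fell, where 35.6% of all tested genes rose and 31.9% fell. Of 43 growth factors and receptors 28 rose and 4 fell, and of 30 genes of BMP and activin signalling 20 and 4. Of 37 genes of Wnt signalling 19 rose and 11 fell (29.73%, near the share of all genes). Of 22 genes of Notch signalling 15 rose and 4 fell, the latter 2 without CiADCs-6d replicate 2. KEGG's Wnt and Notch pathways were closer to even, with 47 rising and 42 falling of 124 and 19 and 15 of 43. Its TGF-beta pathway had 26 rising and 23 falling of 68, and its MAPK pathway 109 and 64 of 236. Of all tested genes with a pathway 36.76% rose and 33.16% fell. VEGFD, a lymphatic growth factor, had 0.0932, 0.334 and 0.133 CPM in BEFs and 33.6, 20.5 and 18.8 CPM in CiADCs-6d (log2 fold change 6.95, SE 0.37, adjusted p = 1.04e-08), and PDGFB, FGF1 and EREG rose by 8.49 (SE 0.34), 5.27 (SE 0.29) and 4.85 (SE 0.24), while HGF fell by 1.51 (SE 0.16). NOG, an antagonist of BMP, had no count in BEFs and was at least 18-fold higher, and GREM1, another, fell by 2.01 (SE 0.14). BMP2 and BMP6 rose by 2.24 (SE 0.13) and 4.56 (SE 0.39), and BMP4 did not pass the test. WNT6 had no count in BEFs either and was at least 26.5-fold higher. WNT11 rose by 4.35 (SE 0.39), the Wnt antagonists SFRP2 and SFRP4 by 4.91 (SE 0.30) and 7.55 (SE 0.22), and DKK2 fell by 3.24 (SE 0.22). The Notch targets HEY1 and HES1 rose by 5.64 (SE 0.41) and 3.02 (SE 0.42). JAG1, a ligand of the Notch receptors, had 43.2, 45.9 and 50.9 CPM in BEFs and 338, 354 and 416 CPM in CiADCs-6d. In prostaglandin synthesis PTGS2 and PTGES, which make prostaglandin E, rose by 5.91 (SE 0.36) and 8.44 (SE 0.22), and PTGIS, which makes prostacyclin, fell by 3.05 (SE 0.21). VEGFD stood at a log2 fold change of 7.66 without BEFs replicate 2, HES1 at 3.66 without BEFs replicate 3 and PTGS2 at 6.53 without BEFs replicate 3.

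Among transcription factors, 21 of 26 tested immediate early genes rose, with a median of 1.49, where 35.6% of all tested genes rose and 31.9% fell. ATF3, EGR3 and FOSB rose by 3.87 (SE 0.31), 3.55 (SE 0.29) and 3.72 (SE 0.39), and FOSL1 fell by 0.50 (SE 0.20) with groups that overlapped. EPAS1, the HIF-2-alpha factor of the hypoxia response, had 60.4, 60.8 and 59 CPM in BEFs and 2438, 2439 and 2796 CPM in CiADCs-6d (log2 fold change 5.41, SE 0.14, adjusted p = 5.31e-11), while HIF1A, of HIF-1, rose by 1.67 (SE 0.20). KLF4 had 87.2, 90 and 123 CPM in BEFs and 819.6, 791 and 823 CPM in CiADCs-6d, and MYC rose by 1.79 (SE 0.19). Of 31 nuclear receptors, 18 rose and 6 fell, with NR5A2, ESR1 and VDR, the last for vitamin D, rising by 5.03 (SE 0.30), 4.73 (SE 0.59) and 3.29 (SE 0.11). THRB, for thyroid hormone, fell by 1.83 (SE 0.26). Of 25 HOX genes, 12 rose and 3 fell, the latter 1 without BEFs replicate 1 or CiADCs-6d replicate 2 or 3 and 5 without CiADCs-3d replicate 1. HOXA5 and HOXA3 rose by 3.19 (SE 0.22) and 3.15 (SE 0.31). HOXA11, with 3 counts in BEFs, was 21.9-fold (95% interval 7.15 to 109) higher, and 45-fold without BEFs replicate 1. FOXC2, FOXF1 and FOXS1 rose by 3.51 (SE 0.37), 2.89 (SE 0.26) and 5.15 (SE 0.30), and SOX4 by 3.18 (SE 0.15). FOSB stood at a log2 fold change of 4.51 without BEFs replicate 3 and ESR1 at 6.98 without BEFs replicate 2. FOSL1 missed the threshold without BEFs replicate 1 or 3, or CiADCs-6d replicate 2 or 3 (adjusted p from 0.0586 to 0.148).

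Of 234 tested solute carriers, 84 were higher and 13 lower (35.9% and 5.556%, against 21.9% and 13.4% of all tested genes). SLC39A14, an importer of zinc, iron and manganese, had 61.7, 60.6 and 67.7 CPM in BEFs and 1305, 1553 and 1483 CPM in CiADCs-6d (log2 fold change 4.51, SE 0.13, adjusted p = 1.19e-10). SLC39A8, of the same family, rose by 6.30 (SE 0.16). MT2A and MT1A, metallothioneins that bind zinc and copper, rose by 2.37 (SE 0.28) and 6.01 (SE 0.69). FTL, the light chain of ferritin, had 581, 554 and 547 CPM in BEFs and 867, 720 and 728 CPM in CiADCs-6d and rose by 0.46 (SE 0.11), far less than FTH1. TFRC and SLC40A1, for iron uptake and export, did not pass the test. HMOX1, which degrades haem, had 32, 35.2 and 39.1 CPM in BEFs and 141, 65 and 71.7 CPM in CiADCs-6d (log2 fold change 1.39, SE 0.27, adjusted p = 0.000699). NQO1 and PRDX1, which reduce quinones and remove peroxide, fell by 1.04 (SE 0.16) and 1.88 (SE 0.16). Of 28 genes of the oxidative stress list, 19 rose and 5 fell, where 35.6% of all tested genes rose and 31.9% fell. Of 21 tested cytochromes P450, 14 rose and 2 fell. CYP1B1 and CYP24A1, of the metabolism of steroids and of vitamin D, rose by 5.73 (SE 0.14) and 4.84 (SE 0.71). HSPA1A, a heat shock protein, rose from 311 ± 16.4 CPM to 2509 ± 394 CPM, while HSPA5, the chaperone of the endoplasmic reticulum, had 739, 724 and 679 CPM in BEFs and 559.8, 817 and 788 CPM in CiADCs-6d and did not pass the test. MT1A stood at a log2 fold change of 5.12 without CiADCs-6d replicate 1 and CYP24A1 at 4.25 without BEFs replicate 2.

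Genes of RNA processing and translation fell more often than they rose, mostly by less than 2-fold, while most ribosomal proteins did not pass the test. Of 81 ribosomal proteins, 15 fell (18.52%, against 31.9% of all tested genes) and 8 rose, with a median log2 fold change of -0.03 (12 rose and 14 fell under total-count scaling). Without CiADCs-6d replicate 1 there were 11 and 12, and 5 rose without any 1 of the BEFs samples or of CiADCs-6d replicates 2 and 3. The KEGG ribosome had 1 of 140 genes higher and 5 lower. The spliceosome and RNA transport had 22 of 127 (17.32%) and 21 of 149 genes (14.09%) lower and 5 higher in each, where 12.88% of all genes with a pathway were lower. Of 33 DEAD box helicases 20 fell and 3 rose, and of 35 aminoacyl tRNA synthetases 18 and 3. NPM1 and NCL, of the nucleolus, fell by 1.20 (SE 0.11) and 1.30 (SE 0.09). The GO process sperm-egg recognition had 9 of 16 genes lower. Of its 9 lower genes, 7 were subunits of the chaperonin that folds actin and tubulin, with CCT7 and TCP1 falling by 1.86 (SE 0.23) and 1.48 (SE 0.12). Zinc finger genes named ZNF were balanced, 67 rising and 70 falling of 290, and 73 and 62 under total-count scaling.

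Among chromatin genes, 9 of 18 histone deacetylases and sirtuins fell and 2 rose, where 31.9% of all tested genes fell and 35.6% rose. HDAC9, HDAC1 and HDAC5 fell by 4.27 (SE 0.22), 1.79 (SE 0.24) and 1.37 (SE 0.15), and SIRT5 and HDAC11 rose by 1.63 (SE 0.11) and 0.93 (SE 0.18). HDAC1 had 144, 141 and 145 CPM in BEFs and 61, 30.5 and 32.8 CPM in CiADCs-6d, and its level in CiADCs-6d replicate 1 was the highest of its group. DNMT1 and UHRF1, which copy DNA methylation after replication, fell by 2.27 (SE 0.13) and 6.72 (SE 0.19), and TET1, which oxidizes it, rose by 1.27 (SE 0.14). Of 36 tested histone genes 14 rose and 10 fell. Most histone messages lack a poly(A) tail, and the labels name a kit that removes ribosomal RNA where the paper's methods name selection by oligo(dT), so their levels depend on a step that is not certain, and many of them are near-identical copies.

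**Figure D5:**
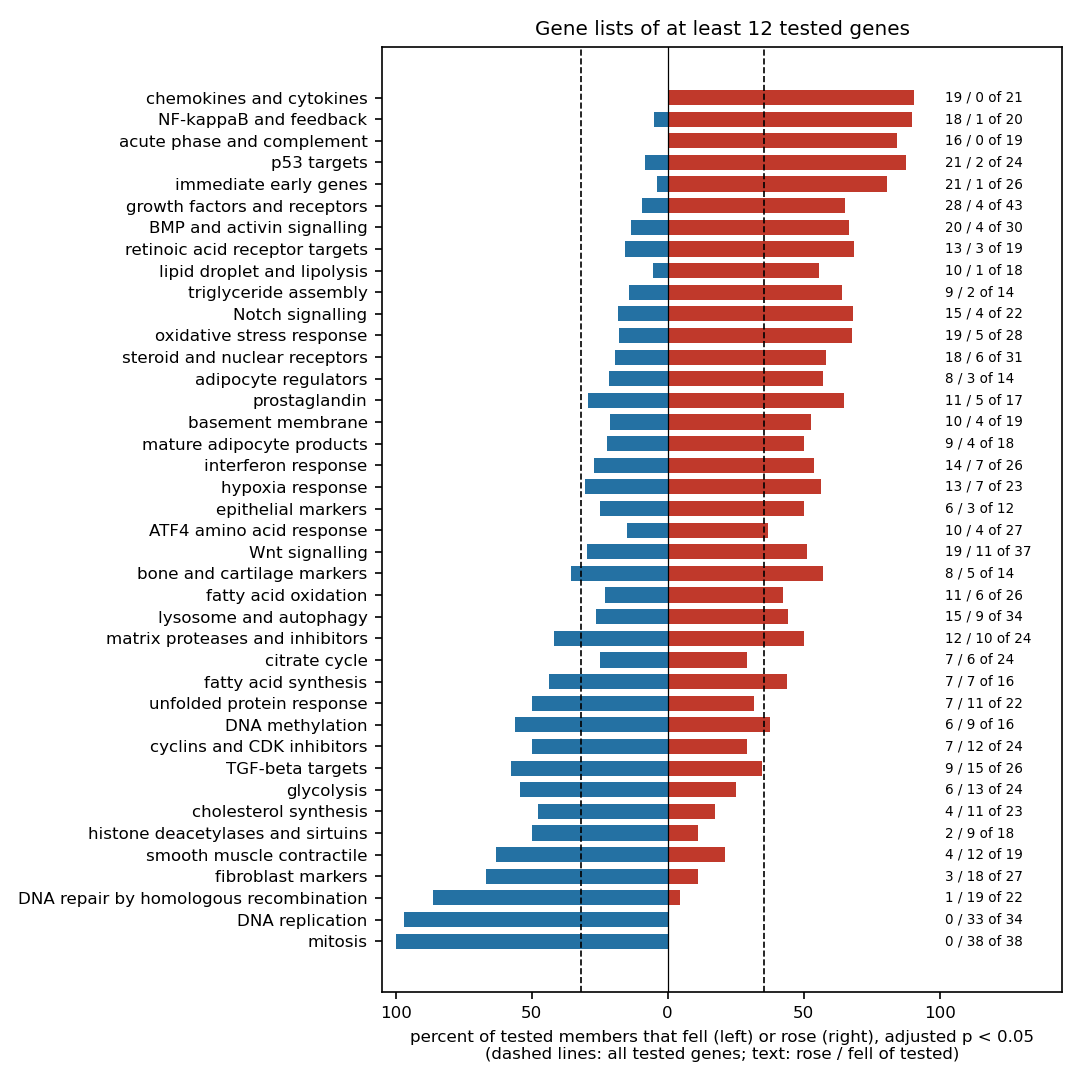
Percent of tested members of each gene list that rose (right, red) or fell (left, blue) at an adjusted p under 0.05, for the lists of at least 12 tested genes, ordered by the difference of the shares. Dashed lines mark the 35.6% and 31.9% of all tested genes, and the lists run from chemokines and cytokines, with 19 of 21 rising, to mitosis, with 38 of 38 falling.

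Markers of other cell types moved in both directions, where 35.6% of all tested genes rose and 31.9% fell. Markers near 0 in BEFs passed the filter on low counts mainly through induced cells, so their rise was built in. Of 14 blood cell markers in the table, 3 had enough counts to be tested, and CD14, CD68 and CSF1R all rose. Summed over the 14 genes the level was 1.38 to 2.04 CPM in BEFs and 65 to 80.8 CPM in CiADCs-6d. CD14, a receptor for bacterial lipopolysaccharide that monocytes carry, made up most of that sum, with 0.699, 0.167 and 1.11 CPM in BEFs and 69, 58.3 and 57.8 CPM in CiADCs-6d (log2 fold change 6.56, SE 0.30, adjusted p = 2.75e-09). The pan-leukocyte marker PTPRC had no count in any of the 6 samples, nor had TYROBP and MS4A1, of myeloid and B cells. Of 13 endothelial markers 7 were tested, of which 3 rose and 3 fell, and their sum went from 74.9 to 84.8 CPM in BEFs to 222 to 346 CPM in CiADCs-6d. VWF, the von Willebrand factor, carried that rise, with 6.52, 7.26 and 9.46 CPM in BEFs and 314, 188 and 231 CPM in CiADCs-6d, while PECAM1 fell by 0.76 (SE 0.29) and CDH5, KDR and EMCN were at most 0.745 CPM in any sample. CD14 stood at a log2 fold change of 7.17 without BEFs replicate 3. PECAM1 missed the threshold without BEFs replicate 3, or CiADCs-6d replicate 1 or 2 (adjusted p from 0.0602 to 0.162).

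Of 20 epithelial markers 12 were tested, 6 rising and 3 falling, with sums of 119 to 176 CPM in BEFs and 168 to 187 CPM in CiADCs-6d. CLDN1 and OCLN, of tight junctions, rose by 4.71 (SE 0.47) and 4.18 (SE 0.24), KRT8 fell by 2.31 (SE 0.27), and EPCAM was at most 0.162 CPM. Of 17 neuronal markers 8 were tested, 6 rising and 2 falling. They summed to 70.5 to 72.3 CPM in BEFs and 71.2 to 102 CPM in CiADCs-6d, and 6 of the 17 had no count. Of 21 bone and cartilage markers 14 were tested, 8 rising and 5 falling with a median log2 fold change of 1.13, while the whole list summed to 1897.8 to 2043.5 CPM in BEFs and 911 to 1203.9 CPM in CiADCs-6d. Of 16 brown adipocyte markers 9 were tested, 6 rising and 1 falling. For these lists too, 35.6% of all tested genes rose and 31.9% fell, and rises of markers near 0 in BEFs were built in by the filter. DIO2, which activates thyroid hormone, rose by 4.06 (SE 0.75), and UCP1, the uncoupling protein that defines brown fat, was at most 0.275 CPM. The part of other cell types in the changes of cytokine, complement and MHC genes was not tested. DIO2 stood at a log2 fold change of 2.87 without CiADCs-6d replicate 1.

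Within CiADCs-6d some genes differed widely between samples, mostly through replicate 1. CILP, a matrix protein, had 271, 88.5 and 102 CPM, ISM1 58.5, 18.5 and 18.5 CPM, and NTRK2, a neurotrophin receptor, 31.9, 8.19 and 8.01 CPM in replicates 1, 2 and 3, so replicate 1 was the highest in each. IGF1, an insulin-like growth factor measured by qRT-PCR in the study, had 0.14, 0.167 and 0.0888 CPM in BEFs and 3.73, 1.05 and 1.14 CPM in CiADCs-6d (log2 fold change 3.85, SE 0.81, adjusted p = 0.00113). HSPA6, an inducible heat shock protein, was lowest in replicate 1, at 16.3, 48 and 59.9 CPM. For these 5 genes every CiADCs-6d sample still lay above every BEFs sample. LIPG, a lipase of endothelium, had 101, 95.3 and 129 CPM in BEFs and 4.93, 14.8 and 14.1 CPM in CiADCs-6d (log2 fold change -3.27, SE 0.34, adjusted p = 4.06e-06), lowest in replicate 1. CILP stood at a log2 fold change of 4.93 without CiADCs-6d replicate 1, ISM1 at 3.73 without CiADCs-6d replicate 1, NTRK2 at 2.98 without CiADCs-6d replicate 1 and IGF1 at 2.97 without CiADCs-6d replicate 1.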

How the data were processed

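RNA-seq was done on 3 BEFs, 3 CiADCs-3d and 3 CiADCs-6d samples, grouped by their labels. The deposited table holds, per the file headers, an expected count and an FPKM per gene and sample. For these files the submitters' processing notes list HISAT2 2.2.4, StringTie 1.3.1, RSEM and fastp 0.18.0, with no role for each, whereas TopHat and HTSeq are named in the methods of the paper. The genome build is not given in the sources used here. Likewise, the labels name a kit that removes ribosomal RNA and the paper selection by oligo(dT). No columns of other samples were in the table (0). Gene names came from RefSeq by NCBI Gene ID, matched for 20582 of 21039 IDs, and 473 loci had no ID.

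Expected counts were rounded to whole numbers, filtered with filterByExpr (minimum count 10, minimum total 15), scaled by TMM and fitted with edgeR 4.0.16 in R 4.3.3 over all 9 samples, with 1 coefficient per group and no replicate block. CiADCs-6d against BEFs was tested by the quasi-likelihood F test, two-sided, with Benjamini-Hochberg adjustment over 14020 genes. The SE was taken as the size of the log2 fold change over √F. CPM used the TMM library sizes, and the deposited FPKM served for levels only. Counts per sample of 18641502 and more limit the precision, and ratios with intervals (95%, exact, of counts) and the floor of 3 counts per library cover counting error only. The main edgeR fit was tested on simulated data in which few genes changed, and the alternatives were not. Alternatives were DESeq2 1.42.0, other scalings and filters, the 6 samples alone, a replicate block, limma 3.58.1 on log2(FPKM + 1) or log2(FPKM + 0.1), and leaving out each sample.

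The gene lists, families and comparisons were chosen with earlier results of these data known. Families were matched by symbol, and partner genes of other kinds were taken out after values were seen. Named genes are the 20 largest changes in each direction at a mean of at least 10 CPM, the 15 most abundant in each group and with the largest FPKM gains and losses, up to 10 without counts in 1 group, the 10 with the widest spread in CiADCs-6d, those the study measured by qRT-PCR, members of the lists, and up to 5 of a family or of the 10 leading pathways and terms (15 to 300 tested genes) in each direction. Others, such as genes of MHC class II and PPAR signaling, FAS, CD80, RB1 and HSPA1A, were chosen after their values were seen, and loci without a gene name were left out. A planned description of promoters was not run, since no sequences were used here. Some genes are not reported here. No explanation was tested.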

Additional observations from a re-analysis of the deposited data

How the results depend on the processing

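The 3075 higher and 1874 lower genes depended on the fold threshold, the unit and the filter. Without a fold threshold 4991 rose and 4469 fell, and a test against that threshold (glmTreat) called 2292 higher and 1223 lower. Limma on log2(FPKM + 1), where the added 1 understates folds of low genes, called 1824 and 1223, and 1843 and 1224 without a filter on low values. Requiring at least 10 counts in every sample gave 2071 and 1446. Leaving out 1 sample gave 3029 to 3182 higher and 1854 to 2160 lower genes, with 2160 lower without CiADCs-6d replicate 1. Higher genes made up 58.8% to 65.2% of the calls over all settings with a fold threshold. Of the 337 genes named with a value, 304 had an adjusted p under 0.05. Of these, 11 missed it without some 1 sample, 8 others passed it, and no called gene changed direction in any alternative. DESeq2, DESeq2's size factors in edgeR, no filter and the replicate block moved none of the 337 genes across the threshold. Limma lost 3 of 289 calls at a pseudocount of 1 and 1 at 0.1. Whether the numbers of the samples pair them cannot be told, since 3 samples per group are too few to decide it. Deviations of same-numbered samples from their group means correlated at 0.01, 0.15 and 0.06. BEFs replicate 3 correlated best with CiADCs-6d replicate 1 (0.07). The replicate block gave 3041 higher and 1874 lower genes. Depth limits genes of low count, and 7492 genes of the table were not tested for that reason.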
